A study of Mus musculus with 5 samples.

Results

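The cytosolic ribosomal protein genes were described in prostate tumors of castrated and intact TripleTg mice. All rows of the count table whose symbol named a protein of the large (Rpl) or small (Rps) ribosomal subunit, or Rplp0, Rplp1, Rplp2 or Rpsa, were taken, without the Rps6k kinases. This gave 86 of 24527 genes, of which 46 encoded large subunit proteins, 31 encoded small subunit proteins and 9 were paralogs whose symbol carries an l for "like". Every mouse had the TripleTg genotype. It combines hHGFtg, a human HGF transgene, with the conditional human MET transgene hMETtg and the Ctnnb1 L(Ex3) allele of stabilized β-catenin, which Cre recombinase turns on in prostate epithelium. Cre is driven by the probasin promoter (PBCre), which itself depends on androgen. The castrated mice lost their testes at 4 months, and tumors of both groups were taken at 8 months of age. Bulk RNA-seq was available for 3 castrated and 2 intact mice, with total counts of 28015507, 18951782 and 20492061 in castrated replicates 1 to 3, then 21560355 and 22853501 in intact replicates 1 and 2. Values per mouse are given in this order throughout.

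Each ribosome is built from ribosomal RNA and a fixed set of proteins, mostly in equal numbers, so that the protein genes are transcribed at high and similar levels in every cell. Their mRNAs begin with a short run of pyrimidines, the 5′ terminal oligopyrimidine (TOP) tract, through which mTOR signaling and the RNA-binding protein Larp1 adjust their translation and stability, and their transcription rises with Myc in growing cells. Most mammalian ribosomal protein genes have also been copied back into the genome from their mRNA, which left processed pseudogenes. Some of these genes also have expressed paralogs, several of them known for tissue-restricted expression in testis or muscle.

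The tracts of the genes that the comparison turned on are shown first, as the stretch of 30 bases around the longest run of C and T near the transcription start given by RefSeq (GRCm38.p6). Sequences read 5′ to 3′ on the transcribed strand, and capitals mark the run. For Rpl34 and Rps24, which had more than 1 start, the start with the longer run is shown (20 and 19 bases). The first 5 genes had the 5 lowest fold changes, Rpl12 and Rps16 were measured by the study in other samples, and Rpl4 and Rpl7l1 were among the 5 nearest to or above 0.
Rpl34 (chr3:130730330-130730359, minus strand): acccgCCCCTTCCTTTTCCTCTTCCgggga
Rps12 (chr10:23787182-23787211, minus strand): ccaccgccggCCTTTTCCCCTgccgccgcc
Rpl32l (chr10:20208429-20208458, plus strand): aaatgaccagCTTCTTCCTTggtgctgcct
Rpl22l1 (chr3:28805499-28805528, plus strand): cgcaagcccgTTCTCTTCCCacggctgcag
Rps24 (chr14:24490710-24490739, plus strand): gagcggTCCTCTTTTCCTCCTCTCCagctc
Rpl12 (chr2:32961732-32961761, plus strand): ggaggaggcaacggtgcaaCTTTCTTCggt
Rps16 (chr7:28350631-28350660, plus strand): caattcacacgTCCCCTCTCaggcttcgac
Rpl4 (chr9:64173405-64173434, plus strand): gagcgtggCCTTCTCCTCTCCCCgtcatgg
Rpl7l1 (chr17:46782671-46782700, minus strand): cgtcgaggcgggCCTCTCTaccccgcccgg
A run of at least 8 pyrimidines within 50 bases of the start was present in 48 of the 57 ribosomal protein genes without an l suffix that had a promoter entry (84.2%), and in 39.2% of 26960 other genes. In Rps16 and Rps24 the run shown lay before the start used (beginning 47 and 37 bases before it). In Rpl34 it began 17 bases before the start, so that these lie outside or mostly outside the transcript of that start. The runs of Rpl12 and Rpl4 began 39 and 26 bases after the start, so they do not lie at the 5′ end of that transcript. In Rpl7l1 the longest run had only 7 bases and began 32 bases before the start. Among other motifs searched on both strands of the same promoters (250 bases before to 50 after the start), CCGGAAGT, bound by ETS family factors, occurred in 19.3% of these genes and 4.27% of the others, AAGATGGC, bound by YY1, in 8.77% and 3.18%, and the GC box GGGCGG, bound by SP1, in 61.4% and 38.1%. The E-box CACGTG, bound by Myc, was present in 10.5% against 8.09%, and TATAAA, the core of the TATA box, in 10.5% against 15.7%. A match is a string of letters and not an observed binding site. Tested genes with a tract had a median log2 fold change of -1.14 (48 genes) and those without one of -1.06 (9 genes).

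All 77 ribosomal protein genes without an l suffix had a lower mean in castrated than in intact samples, but the difference came mainly from 1 of the 2 intact mice. Together the 86 genes took 4.53%, 3.88% and 4.53% of all counts in the castrated mice and 4.84% in intact replicate 1. In intact replicate 2 they took 12.8%. Wilson 95% intervals of these shares were narrow (12.78% to 12.81% in intact replicate 2) and cover counting error only. In the length-corrected unit TPM (counts divided by gene length and scaled to a common total), the genes held 13.1%, 11.7%, 13.1% and 14.9% of the total in the first 4 samples and 32.3% in intact replicate 2. Intact replicate 2 thus stood far above the others, whereas intact replicate 1 lay just above the castrated samples.

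Gene by gene, intact replicate 2 again stood highest. Of the 77 genes without an l suffix, 77 had their highest value in intact replicate 2, in CPM (counts scaled to library size) with library sizes scaled by edgeR's TMM method (trimmed mean of M-values). The lowest value was in castrated replicate 2 for 54 genes, in intact replicate 1 for 13, and in castrated replicates 1 and 3 for 5 each. Relative to the intact mean, the median log2 level was -0.83, -1.03 and -0.79 in the castrated mice, -0.76 in intact replicate 1 and 0.76 in intact replicate 2. On this scale intact replicate 2 exceeded intact replicate 1 by a median of 1.52, and the castrated mean minus intact replicate 1 had a median of -0.18. The same gap between the intact mice had a median of 0.066 over all 14612 genes tested, of which 6.98% showed a gap at least as large as the ribosomal protein median.

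**Figure D1:**
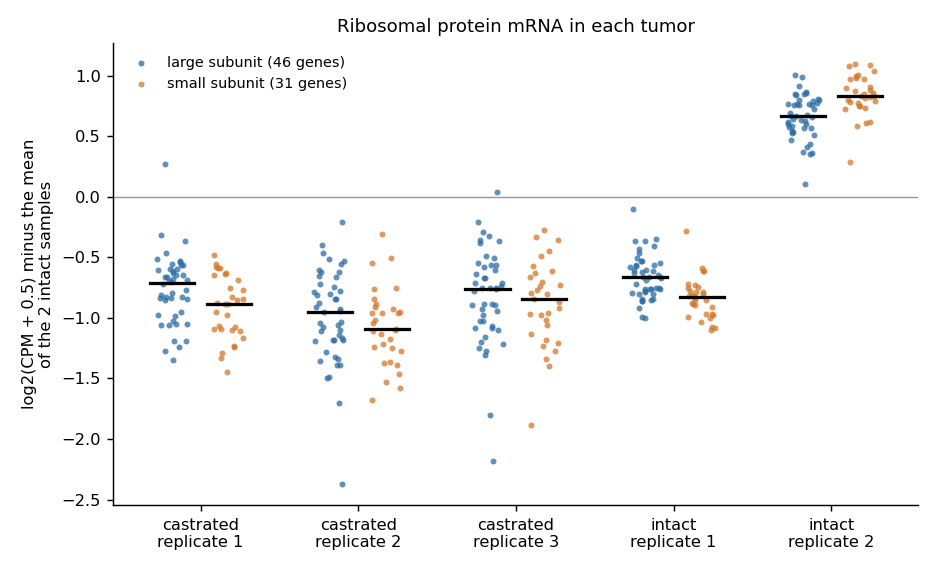
Each point is 1 ribosomal protein gene without an l suffix (46 large subunit, 31 small subunit), plotted for each tumor as log2(CPM + 0.5) minus the mean of the 2 intact samples, with black bars at the medians. All points of intact replicate 2 lie above 0, whereas intact replicate 1, at a median of -0.76 over both subunits, sits just above the castrated medians and overlaps their points.

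Castrated and intact samples were compared with edgeR's quasi-likelihood test on the counts of the 14612 genes that exceeded a CPM of 1 in 2 or more samples. Of the 86 genes, 83 entered the test, and 3 paralogs (Rpl10l, Rpl39l and Rpl3l) did not because their counts were too low. After Benjamini-Hochberg adjustment, 0 of 83 were called, as were 0 of all genes tested (0%), and the smallest adjusted p among the 83 was 0.290 with edgeR's quasi-likelihood test. At an unadjusted p under 0.05 and in the lower direction, 24 of 83 passed (28.9%), against 6.28% of all genes tested. The fold change was below 0 in 82 of 83, against 52.1% of all genes tested. The median log2 fold change was -1.08 over the 77 genes without an l suffix and -0.028 over all genes tested. All 3 castrated samples were below both intact samples in 46 of 83 genes (55.4%), against 16.1% of all genes tested, and above both in 1, against 17%. With DESeq2, 7 members were called lower at the study's thresholds, an adjusted p under 0.05 with a log2 fold change under -1 (Rpl22l1, Rpl24, Rpl34, Rpl35, Rpl41, Rps10 and Rps12), where 1.96% of all genes tested were called lower. With edgeR's likelihood ratio test, 1 was called (Rpl34), where 0.636% of all genes tested were called lower. These genes vary together across the 5 mice, so their counts do not act as independent observations. In bulk tissue, fewer cells of a type and less RNA per cell cannot be told apart.

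When intact replicate 2 was left out, the median log2 fold change of the 77 genes was -0.21, and 17 of them lay above 0 (8 large and 9 small subunit genes). Without intact replicate 1 it was -1.64, and 77 of 77 remained below 0. In all 5 fits that each left out 1 mouse, 60 of 77 genes were below 0. With intact replicate 2 left out, Rpl34, Rpl22l1 and Rps4l were the only members at an unadjusted p under 0.05 in edgeR's quasi-likelihood test (3 of 83, against 14.1% of all genes tested in that fit), and 0 passed after adjustment.

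Intact replicate 2 also differed from the other tumors in genes of prostate secretory cells, whose products androgen maintains. The summed CPM of 7 secretory markers was 1359 in intact replicate 2, against 0.31 in intact replicate 1 and 1.15, 0.21 and 0.49 in the castrated mice. Tgm4, a secreted prostate transglutaminase and the most abundant of the 7 in that sample, had a CPM of 1347 in intact replicate 2 and at most 0.42 elsewhere. Pbsn, which encodes probasin, was at 5.21 in intact replicate 2, at 0.45 and 0.24 in castrated replicates 1 and 3, and at 0 in the other two, while Msmb was at 0 in all samples. None of the 7 passed the filter on low values. The 12 epithelial markers, by contrast, summed to 3904, 3556 and 4534 CPM in the castrated mice and 5674 and 4815 in intact replicates 1 and 2. Krt8, a luminal keratin, was the most abundant of them in the castrated mice, and the adhesion molecule Epcam in intact replicate 1. Neither intact mouse held more than traces of adipocyte RNA by its defining gene Adipoq (CPM 0 and 0.093), which reached 68.8 and 68.3 in castrated replicates 2 and 3 but only 0.52 in castrated replicate 1. The summed CPM of 11 adipocyte markers was 147, 1344 and 1309.8 in the castrated mice and 153 and 166 in intact replicates 1 and 2. Car3 led in castrated replicates 2 and 3, and the lipase gene Pnpla2, which other cells also express, in the other 3 samples. Castrated replicate 1 had a median ribosomal protein level of -0.83, between the other castrated samples. The part of the tissue mix in the ribosomal protein difference was not tested.

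Rpl34, a large subunit protein gene on chromosome 3 (130726827 to 130730398, mm10), had the lowest fold change of the module. Rpl34 had a CPM of 214, 105 and 119.5 in the castrated mice and of 337 and 878 in the intact mice. The groups did not overlap, and the castrated values were below both intact mice even though those differed from each other. Another row, Rpl34-ps1, lies inside Rpl34 (130726837 to 130730329) and was at 4.29, 4.93 and 5.21 CPM in the castrated mice. Its intact values were 4.66 and 15.7 CPM, so its groups overlapped. How reads were divided between Rpl34 and Rpl34-ps1 was not tested. The log2 fold change of Rpl34 was -2.06 (SE 0.52, adjusted p = 0.290 by the quasi-likelihood test of edgeR with the Benjamini-Hochberg method). Rps12, a small subunit protein gene on chromosome 10, was among the 3 members with the highest mean TPM over all 5 samples. The CPM of Rps12 was 638, 543 and 661 in the castrated mice and 875 and 3473 in the intact mice. Here intact replicate 2 alone was high, and intact replicate 1 lay slightly above the castrated samples. For Rps12, edgeR's quasi-likelihood test gave a log2 fold change of -1.82 (SE 0.61, Benjamini-Hochberg adjusted p = 0.306). Rps24, a small subunit gene mutated in some patients with Diamond-Blackfan anemia, had the highest CPM of the module in intact replicate 2, but in the castrated mice it was below Rpl4 and Rpl7. In the castrated mice Rps24 was at 1167, 981 and 1249 CPM, and in the intact mice at 1496 and 5735 CPM. The pattern matched that of Rps12, without overlap of the groups. The log2 fold change of Rps24 was -1.68 (SE 0.65, adjusted p = 0.330 by the quasi-likelihood test of edgeR with the Benjamini-Hochberg method).

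Rpl12 and Rps16 were the ribosomal protein genes that the study also followed by other assays. Rpl12, a protein of the ribosomal stalk base on chromosome 2 (32961712 to 32964045), had no overlap between the groups. CPM values of Rpl12 were 820.4, 714 and 839 under castration and 936 and 3754 in the intact mice. For Rpl12, edgeR's quasi-likelihood test gave a log2 fold change of -1.57 (SE 0.62, Benjamini-Hochberg adjusted p = 0.333). Rps16, a small subunit protein gene on chromosome 7 (28350689 to 28352698), did overlap. Castrated mice had 378, 379 and 454 CPM of Rps16, and intact mice 438 and 1515 CPM. Castrated replicate 3 was above intact replicate 1, and the group difference rested on intact replicate 2. The log2 fold change of Rps16 was -1.27 (SE 0.53, adjusted p = 0.347 by the quasi-likelihood test of edgeR with the Benjamini-Hochberg method). In the fits that each left out 1 mouse, the log2 fold change ran from -2.23 to -0.28 for Rpl12 and from -1.89 to -0.16 for Rps16.

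The proteins of the acidic stalk and the factors' docking site, Rplp0, Rplp1 and Rplp2, had log2 fold changes of -0.94, -0.71 and -0.89. Rplp0, often used as a reference gene in quantitative PCR, differed between the intact mice by more than between intact replicate 1 and any castrated sample. Rplp0 had a CPM of 1228, 1006 and 1153 in the castrated mice and of 1229.6 and 3089.9 in the intact mice. The castrated replicate 1 value and that of intact replicate 1 were nearly equal. Rpl5 and Rpl11, which together with 5S ribosomal RNA bind Mdm2 when ribosome assembly fails, had log2 fold changes of -1.22 and -0.64. For Rpl5 the groups did not overlap. The CPM of Rpl11 was 456, 375 and 435 in the castrated mice and 328 and 989 in the intact mice. For Rpl11, intact replicate 1 was the lowest of the 5 samples. Rps6, the substrate of the S6 kinases, showed the widest gap between the intact mice. In the castrated mice Rps6 was at 572, 463 and 516 CPM, and in the intact mice at 418 and 1917 CPM. Again intact replicate 1 was the lowest sample and intact replicate 2 the highest, with a log2 difference of 2.20 between them.

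Several members with roles of their own outside the core of the ribosome kept to the same range. Rpsa, which also serves as a laminin receptor at the cell surface, had a log2 fold change of -1.06, and Rpl10, which joins the large subunit late in the cytoplasm, of -0.86. Rps19, the gene most often mutated in Diamond-Blackfan anemia, was at -1.27, and Rpl38, a large subunit protein known for selective translation of Hox mRNAs, at -1.14. CPM values of Rpl38 were 250.1, 216 and 238 under castration and 335 and 702 in the intact mice. The castrated samples were close to each other and below both intact mice. For Rpl38, edgeR's quasi-likelihood test gave a log2 fold change of -1.14 (SE 0.35, Benjamini-Hochberg adjusted p = 0.297). Rpl13a, a large subunit protein with a known role in translational silencing by interferon, was measured at a mean TPM of only 93.8. Castrated mice had 40.3, 18.5 and 28.7 CPM of Rpl13a, and intact mice 40.2 and 93.4 CPM. Its groups overlapped by a small margin, since castrated replicate 1 and intact replicate 1 were nearly equal.

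At the other end, Rpl29 (log2 fold change -0.37), Rpl21 (-0.44) and Rpl4 (-0.45) had the smallest differences among genes without an l suffix. Rpl29 had a CPM of 291, 144 and 143 in the castrated mice and of 189.6 and 308 in the intact mice. Castrated replicate 1 was close to intact replicate 2, and the groups overlapped through this castrated sample. The CPM of Rpl4 was 1296, 1269.6 and 1447 in the castrated mice and 1084 and 2581 in the intact mice. For Rpl4, all 3 castrated samples lay between the intact mice. Leaving out intact replicate 2 gave a log2 fold change of 0.26 for Rpl4 and of 0.47 for Rpl21, while that of Rpl29 stayed at or below -0.020 in every fit that left out 1 mouse.

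**Figure D2:**
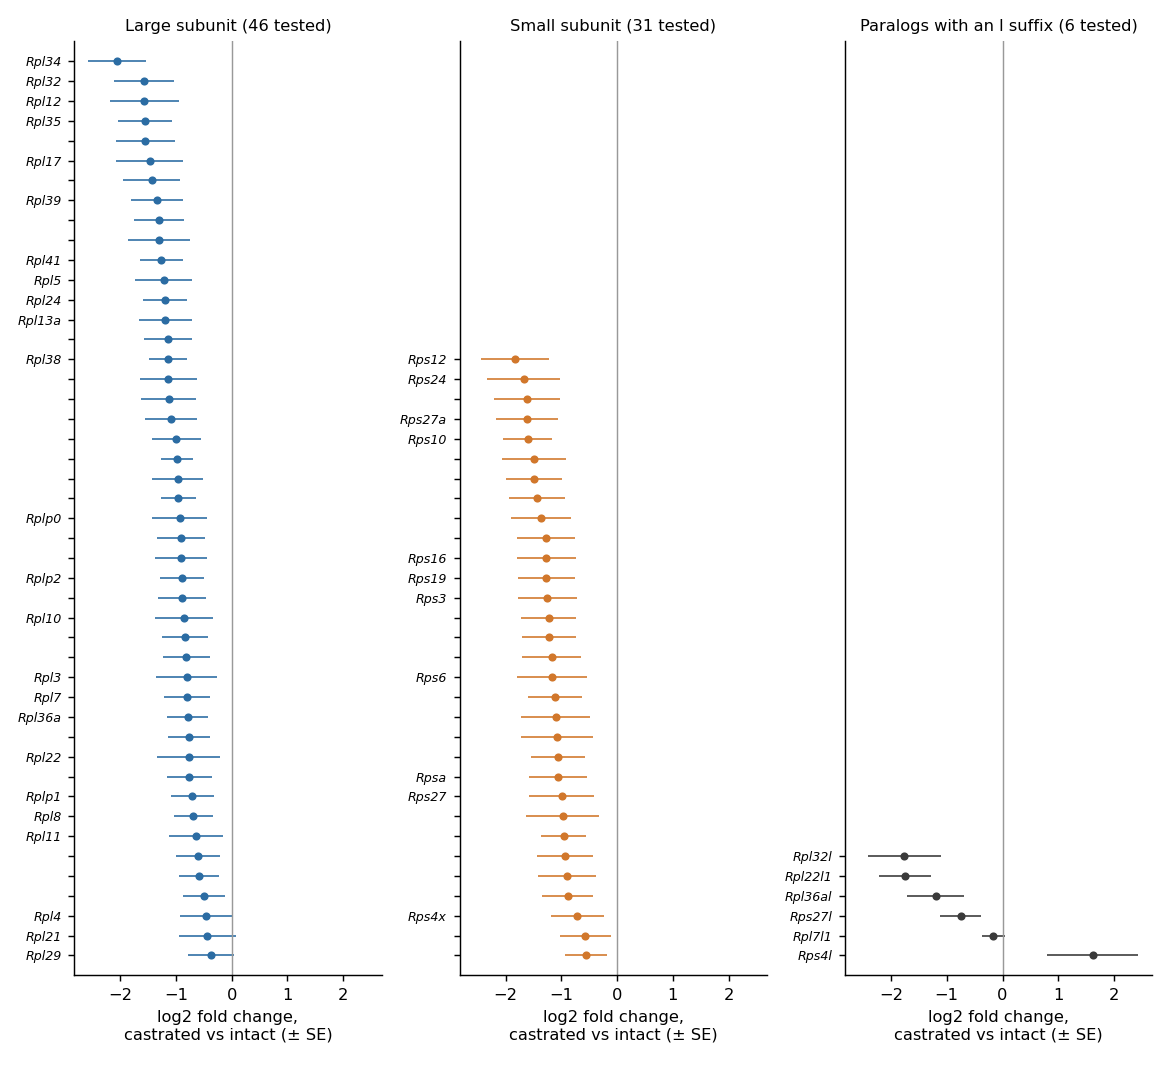
Points give the log2 fold change of castrated against intact samples from edgeR's quasi-likelihood fit, bars the standard error, for the 46 large subunit genes, 31 small subunit genes and 6 paralogs tested, with names at the genes described in the text. Every gene without an l suffix lies below 0, from -2.06 (Rpl34) to -0.37 (Rpl29), and Rps4l is the only member above 0.

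Large and small subunit genes were compared next. The median log2 fold change was -0.95 over 46 large subunit genes, of which 28 did not overlap between the groups (60.9%) and 14 were at an unadjusted p under 0.05. It was -1.18 over 31 small subunit genes, of which 15 did not overlap (48.4%) and 8 were at an unadjusted p under 0.05. Over all genes tested, 16.1% had all castrated samples below both intact mice and 6.28% were lower at an unadjusted p under 0.05. Summed large subunit CPM was 25397, 22483 and 25519 in the castrated mice and 27021 and 70791 in intact replicates 1 and 2. Summed small subunit CPM was 18431, 16624 and 19458 in the castrated mice and 19344.5 and 64228 in intact replicates 1 and 2. Both subunits were high in intact replicate 2, the small one more so, since its sum there was 3.32 times that of intact replicate 1, against 2.62 times for the large subunit. The ratio of large to small subunit counts was accordingly 1.38, 1.35 and 1.31 in the castrated mice and 1.40 in intact replicate 1, but 1.10 in intact replicate 2. By gene, the log2 gap between the intact mice had a median of 1.33 for the large subunit (range 0.21 to 2.003) and 1.66 for the small subunit (range 0.57 to 2.20). Without intact replicate 2, the medians of the subunits were alike, at -0.21 each. The difference between the subunits was not tested, because members were chosen with earlier results known.

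Within the module, fold change followed gene properties only loosely. Over the 77 genes without an l suffix, Spearman's rho with the log2 fold change was 0.23 for gene length, -0.072 for mean CPM and, over 57 genes, -0.091 for the length of the longest pyrimidine run, all across genes that share the same 5 libraries. The genes were short, with a median length in the table of 0.734 kb against 3.081 kb over all genes tested, and a correction for gene length within each library brought their median log2 fold change to -0.86. They lay on 19 chromosomes, 14 of them on chromosome 7, and the 4 on chromosome X had a median log2 fold change of -0.83. In level per length, 57 of 77 were among the 100 genes with the highest mean TPM and 74 among the first 500. By the mean over all 5 samples the highest were Rps12 (mean TPM 5043), Rpl17 (4844), a protein near the nascent chain exit tunnel, and Rpl12 (4701). These means were raised by intact replicate 2, and in each of the other 4 samples the TPM of Rpl7 was above those of Rps12 and Rpl12. The intact SDs of these levels were too wide to order them.

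Counts of this family depend on how reads from near-identical copies were handled, which the study's methods do not state. To describe this, the coding sequence of each member was divided into all windows of 50 bases, and the share of windows also found in another annotated mouse gene was computed. The median share was 93.0% over the 77 genes, 30 of them had every window in another gene, and the median number of processed pseudogenes holding a window was 9. Rps3 (8.09%) and Rpl8 (8.73%) had few shared windows. In the castrated mice Rps3 was at 889, 771 and 889 CPM, and in the intact mice at 1001 and 3045 CPM. Both intact mice lay above the castrated range, intact replicate 2 by far. The log2 fold change of Rps3 was -1.25 (SE 0.53, adjusted p = 0.351 by the quasi-likelihood test of edgeR with the Benjamini-Hochberg method). Rpl8 had a log2 fold change of -0.69, also without overlap of the groups. The 31 tested members with every window shared had a median log2 fold change of -1.14, and Spearman's rho between the shared percentage and the log2 fold change was -0.084 over 77 genes. The shared percentage likewise bore little relation to the level (Spearman's rho with mean TPM -0.024).

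**Figure D3:**
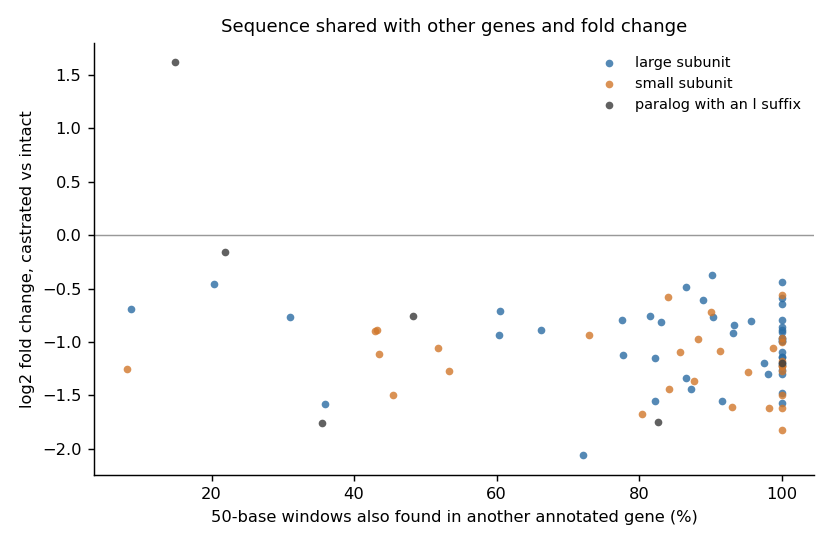
Each point is 1 of the 82 tested members with a shared window, with the percentage of its 50-base windows also found in another annotated gene on the x axis and the log2 fold change of castrated against intact samples on the y axis. Rps3 at 8.09% and Rpl8 at 8.73% lie within the fold changes of the members at 100%, and only Rps4l is above 0.

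Against the high level of the module, 3 genes without an l suffix ranked below the first 1000 by mean TPM. Rpl24 (mean TPM 12.3) and Rps10 (19.9) encode essential ribosomal proteins and had 41 to 131 and 41 to 231 counts per sample, and Rpl13a was the third. All coding windows of Rpl24 and 93.0% of those of Rps10 were shared with other genes. CPM values of Rpl24 were 3.001, 2.20 and 2.14 under castration and 5.20 and 6.09 in the intact mice. The intact mice were close to each other and both above the castrated samples. For Rpl24, edgeR's quasi-likelihood test gave a log2 fold change of -1.20 (SE 0.39, Benjamini-Hochberg adjusted p = 0.302). Castrated mice had 3.91, 2.84 and 1.998 CPM of Rps10, and intact mice 7.08 and 10.7 CPM. Here too the groups did not overlap, and with intact replicate 2 left out the log2 fold change of Rps10, -1.32, was the lowest of the 77 genes. How far these low counts represent the genes was not tested.

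The 9 paralogs with an l suffix were compared with their parent genes. For the pairs whose ratio is described below, aligned stretches of 60 coding bases are shown, taken from mouse transcripts of the GENCODE annotation of GRCm38, with capitals at the bases that differ within a pair.
Rpl22: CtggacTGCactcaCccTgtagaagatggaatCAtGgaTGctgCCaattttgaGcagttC
Rpl22l1: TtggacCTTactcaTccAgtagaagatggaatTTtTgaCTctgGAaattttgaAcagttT
Rpl7: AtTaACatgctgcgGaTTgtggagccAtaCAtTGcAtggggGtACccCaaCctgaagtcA
Rpl7l1: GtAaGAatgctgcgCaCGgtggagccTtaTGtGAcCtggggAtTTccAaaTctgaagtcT
Rps4x: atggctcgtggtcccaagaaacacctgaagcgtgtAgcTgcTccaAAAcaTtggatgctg
Rps4l: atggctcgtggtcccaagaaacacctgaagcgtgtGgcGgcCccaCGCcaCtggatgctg
Rpl32: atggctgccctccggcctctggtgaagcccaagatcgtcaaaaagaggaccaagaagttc
Rpl32l: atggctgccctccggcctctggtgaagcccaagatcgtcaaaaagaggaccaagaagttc
Rpl36a: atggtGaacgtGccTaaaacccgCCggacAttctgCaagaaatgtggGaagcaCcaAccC
Rpl36al: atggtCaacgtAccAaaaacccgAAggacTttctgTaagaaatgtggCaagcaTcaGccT
Rps27: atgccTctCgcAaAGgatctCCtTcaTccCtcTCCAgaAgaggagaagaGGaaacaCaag
Rps27l: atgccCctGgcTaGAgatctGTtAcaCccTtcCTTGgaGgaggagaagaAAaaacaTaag
These stretches cover coding bases 67 to 126 of Rpl22, 454 to 513 of Rpl7 and 1 to 60 of Rps4x, Rpl32, Rpl36a and Rps27. They hold 15, 19, 7, 0, 11 and 18 differences. Over the part of the parent's coding sequence that aligned, identity was 74.8% for Rpl22l1, 64.9% for Rpl7l1, 79.9% for Rps4l and 97.5% for Rpl32l. It was 87.7% for Rpl36al and 76.2% for Rps27l, and among the paralogs left out of the test 84.7% for Rpl10l, 85.5% for Rpl39l and 74.8% for Rpl3l. The aligned part held 573 of the 810 coding bases of Rpl7, 322 of the 384 of Rpl22 and nearly all of the other parents. Rpl32l is annotated as a processed pseudogene in GENCODE, and its longest run identical to Rpl32 was 94 bases, so its counts may include reads of the parent. Rps4l is annotated as a noncoding transcript, and its longest run identical to Rps4x was 35 bases. Of the 50-base windows of Rps4l, 14.9% were shared, all with 1 processed pseudogene. Whether the counts of Rps4l include reads of Rps4x was not tested.

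Testis and muscle paralogs were close to absent. Rpl10l, which replaces the X-linked Rpl10 in male germ cells, had 0 counts in all samples, which allows up to 3 counts per library. Rpl39l, another testis paralog, had 8 counts in castrated replicate 1, 1 in intact replicate 2 and 0 elsewhere. Rpl3l, which replaces Rpl3 in heart and skeletal muscle, had between 1 and 10 counts per sample. Germ cell markers summed to at most 0.63 CPM and skeletal muscle markers to at most 4.77 CPM in any sample. Their parents Rpl10, Rpl39 and Rpl3 had log2 fold changes of -0.86, -1.34 and -0.81.

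Rpl22l1, on chromosome 3 (28805508 to 28807424), is known to cross-regulate with its parent Rpl22, an RNA-binding protein of the large subunit. Rpl22l1 had a CPM of 138, 81.7 and 94.2 in the castrated mice and of 194 and 509.7 in the intact mice. Rpl22 was ordered differently. The CPM of Rpl22 was 324, 335 and 392 in the castrated mice and 241 and 953 in the intact mice. Rpl22l1 was below both intact mice in all 3 castrated samples, whereas for Rpl22 the lowest sample was intact replicate 1. Rpl22l1 thus reached 80.7% and 53.5% of the parent's CPM in intact replicates 1 and 2, and 42.6%, 24.4% and 24.01% in the castrated mice. The log2 ratio, computed from CPM plus 0.5, was -1.77 ± 0.47 in castrated (SD, n = 3) and -0.61 ± 0.42 in intact mice (SD, n = 2), and the groups did not overlap (exact permutation test over samples, two-sided p = 0.2, adjusted p = 0.4 over 6 pairs). With 3 against 2 samples, 0.2 is the smallest p this two-sided test gives. The log2 fold change of Rpl22l1 was -1.75 (SE 0.46, adjusted p = 0.290 by the quasi-likelihood test of edgeR with the Benjamini-Hochberg method).

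Rps4l, on chromosome 6 (148354656 to 148355596), was the only member above both intact mice in all castrated samples. In the castrated mice Rps4l was at 10.4, 9.22 and 20.7 CPM, and in the intact mice at 1.34 and 7.44 CPM. Intact replicate 1 was the lowest by far, at 30 counts, and castrated replicate 3 the highest, at 425. For Rps4l, edgeR's quasi-likelihood test gave a log2 fold change of 1.61 (SE 0.82, Benjamini-Hochberg adjusted p = 0.407). It was 0.87 without intact replicate 1 and 3.27 without intact replicate 2. Its parent Rps4x, the X-linked gene of a small subunit protein, had a log2 fold change of -0.72. The log2 ratio of Rps4l to Rps4x was -6.53 ± 0.47 in castrated (SD, n = 3) and -8.90 ± 0.63 in intact mice (SD, n = 2), without overlap (exact permutation test, two-sided p = 0.2, adjusted p = 0.4 over 6 pairs). The difference of 2.38 was the largest of the 6 pairs.

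Rpl7l1, a nucleolar relative of Rpl7, showed little difference between the groups. CPM values of Rpl7l1 were 112, 104 and 89.6 under castration and 102 and 126 in the intact mice. All 5 values were close to each other, and the groups overlapped. Rpl7, a large subunit protein, had a log2 fold change of -0.80 against -0.16 for the paralog, so that Rpl7l1 made up 7.90%, 9.13% and 7.01% of the parent's CPM in castrated and 6.13% and 4.53% in intact samples. The log2 ratio was higher by 0.60 in castrated samples, with no overlap (exact permutation test, two-sided p = 0.2, adjusted p = 0.4 over 6 pairs). For the other 3 pairs the ratios overlapped. The difference was 0.064 for Rpl32l (exact permutation p = 0.8), -0.23 for Rpl36al (exact permutation p = 0.8) and -0.062 for Rps27l (exact permutation p = 1). Rpl32l remained between 0.19% and 0.29% of Rpl32, and Rpl36al between 0.31% and 0.81% of Rpl36a. Rpl36al had only 12 to 51 counts per sample and 100% of its windows were shared with other genes, and how far these counts represent it was not tested. Rps27l, a target of p53, varied from 11.3% to 27.9% of Rps27.

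**Figure D4:**
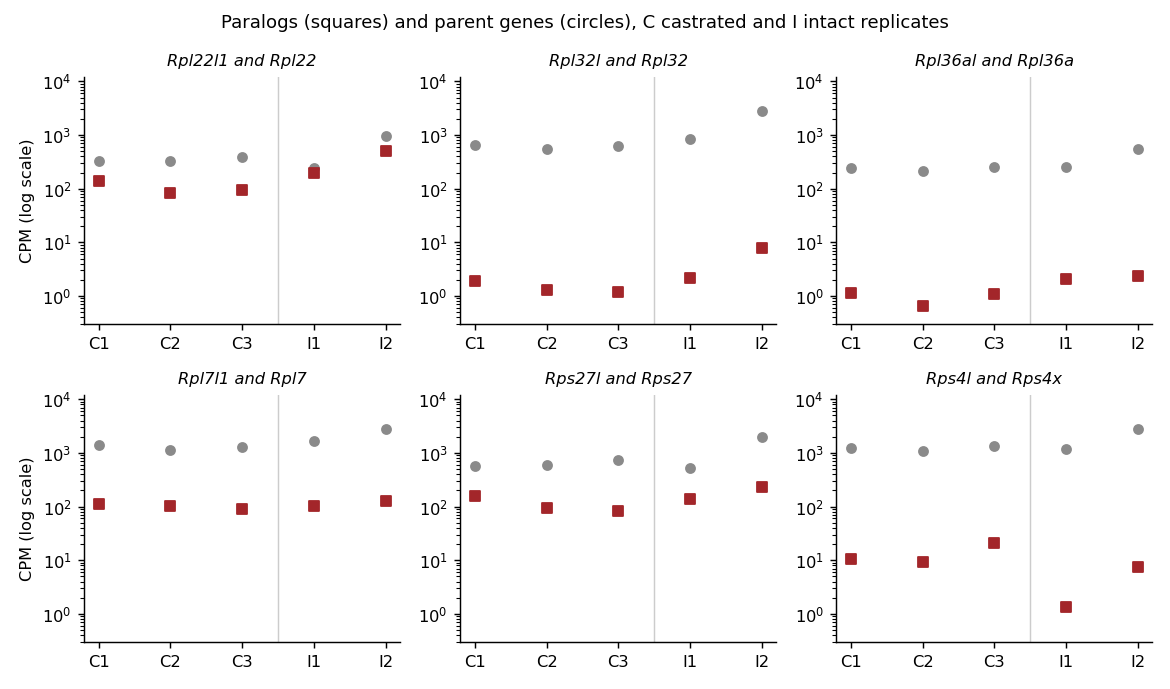
CPM on a log axis in castrated (C1 to C3) and intact (I1, I2) replicates, with squares for the paralog and circles for the parent gene in 6 pairs. Rps4l is higher in the castrated samples while Rps4x is highest in intact replicate 2, and Rpl7l1 stays between 89.6 and 126 CPM while Rpl7 does not.

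Genes that act with the ribosomal proteins were described from further lists. Rps27a encodes a ribosomal protein fused to ubiquitin, and Fau one fused to a ubiquitin-like domain. Castrated mice had 744, 606 and 692 CPM of Rps27a, and intact mice 955 and 3216 CPM. Rps27a had no overlap between the groups and a log2 fold change of -1.62. Fau had a CPM of 336, 316 and 336 in the castrated mice and of 331 and 956 in the intact mice. For Fau, intact replicate 1 lay within the castrated range. Of 19 other messages known to carry a TOP tract, which include Fau, 19 were below 0 and 9 had all castrated samples below both intact mice, where 52.1% and 16.1% of all genes tested did, with a median log2 fold change of -0.74. Rack1, a small subunit protein that the naming rule does not take, had a log2 fold change of -1.14 and the elongation factor Eef1b2 of -1.51, whereas Eef1a1, the most abundant of them, was at -0.41 with overlapping groups. Rack1, Eef1b2 and Eef1a1 were chosen after their values were seen. The median level of this list relative to the intact mean was -0.58, -0.82 and -0.67 in the castrated mice, -0.47 in intact replicate 1 and 0.47 in intact replicate 2, the highest sample here too.

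Ribosome biogenesis genes, which encode nucleolar assembly factors and subunits of RNA polymerase I, also had fold changes below 0 but did not set the intact mice apart. All 26 were below 0, 18 had all castrated samples below both intact mice, and 12 were at an unadjusted p under 0.05, with a median log2 fold change of -0.43. Over all genes tested these shares were 52.1%, 16.1% and 6.28%. Their median level was -0.071 in intact replicate 1 and 0.071 in intact replicate 2, against -0.38, -0.44 and -0.56 in the castrated mice. Proliferation markers likewise placed both intact mice above the castrated ones, at -0.17 and 0.17 in the intact mice and -1.96, -1.65 and -1.26 in the castrated mice, and 10 of 10 genes had all castrated samples below both intact mice, against 16.1% of all genes tested. Mki67 encodes the Ki-67 antigen of dividing cells. The CPM of Mki67 was 18.7, 30.5 and 40.3 in the castrated mice and 101 and 128 in the intact mice. Both intact mice were well above all castrated samples. The log2 fold change of Mki67 was -1.94, with an adjusted p of 0.289 (quasi-likelihood test of edgeR, Benjamini-Hochberg method). Of 16 genes that control ribosomal protein synthesis, including Mtor, Larp1 and the S6 kinases, 12 were below 0 and 3 had all castrated samples below both intact mice, near the 16.1% of all genes tested, with a median log2 fold change of -0.15. In the castrated mice Myc was at 69.2, 89.8 and 51.1 CPM, and in the intact mice at 196 and 85.9 CPM. Myc, which activates ribosomal protein and biogenesis genes, was highest in intact replicate 1, and intact replicate 2, where the ribosomal proteins peaked, lay within the castrated range. Its log2 fold change was -1.01.

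**Figure D5:**
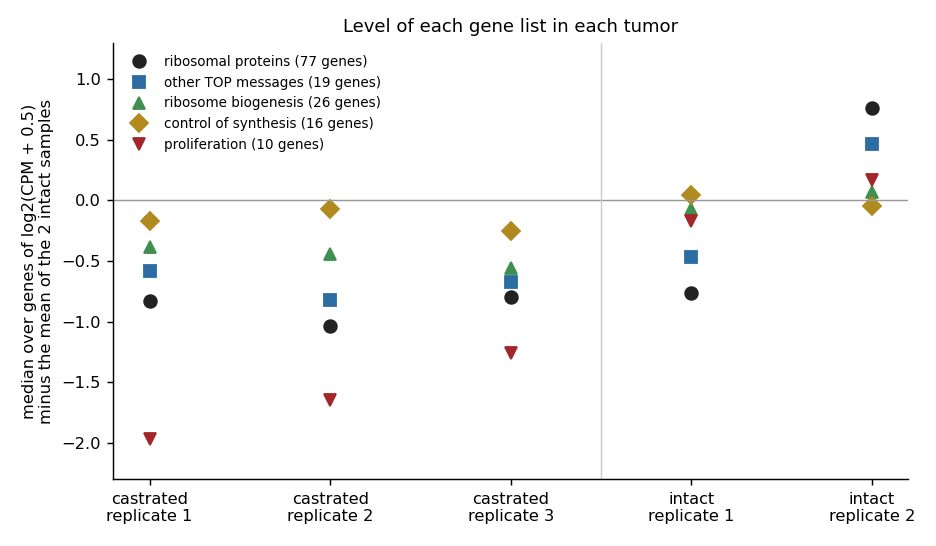
Points give, for each tumor, the median over the genes of a list of log2(CPM + 0.5) minus the mean of the 2 intact samples. Ribosomal proteins and other TOP messages separate intact replicate 2 (0.76 and 0.47) from all other samples, whereas ribosome biogenesis and proliferation genes place the 2 intact mice together above the castrated ones.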

How the data were processed

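Ribosomal RNA-depleted, paired-end libraries of prostate tumors from 3 castrated and 2 intact TripleTg mice, grouped by the condition in their labels, were used. The authors used Trimmomatic 0.39 for trimming and STAR 2.7.9 for alignment to mm10, counted reads per gene with HTSeq 2.0.2 (versions from the submitters' processing notes), and deposited raw counts without normalization. Strand and multiple mapping in the counting are not given in the sources used here, so that counts of overlapping, antisense or copied genes are uncertain. Total counts ran from 18951782 to 28015507, and TMM factors from 0.944 to 1.036. With a common dispersion of 0.238, precision was limited by variation among mice rather than by depth.

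Software was edgeR 4.0.16, DESeq2 1.42.0 and limma 3.58.1 under R 4.3.3, with pandas 2.3.3, scipy 1.17.1 and biopython 1.88 for tables, exact tests and alignments. The 14612 genes that exceeded a CPM of 1 in 2 or more samples were tested with the quasi-likelihood F-test of edgeR after TMM scaling, as in the study's methods, which name TPM as input. Counts were used here, since the file holds them. A gene was called when its p, adjusted by the Benjamini-Hochberg method, was under 0.05 and its log2 fold change was beyond 1 in size. The SE was derived from the log2 fold change and the square root of F. TPM used the gene lengths of the table, which are long for Rps15a (5.129 kb) and Rps20 (3.442 kb). Paralog ratios used CPM plus 0.5 and an exact permutation test over samples. Coordinates are those of mm10, counted from 1. Of 86 members, 86 had a GENCODE transcript (78 matched by RefSeq accession) and 65 a RefSeq promoter.

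Genes were named by a rule: Rpl12 and Rps16, the 5 lowest and 5 highest fold changes, each paralog and parent, 12 members with roles of their own, the 3 highest and 3 lowest mean TPM, Fau, Myc and Mki67. Rps3, Rpl8, Rps10, Rpl35, Rpl41, Rps15a, Rps20 and Rpl34-ps1 fall outside this rule and were named after their values were seen. Some genes are not reported here by name. Members, lists and rule were chosen with earlier results of these data known. Replicate numbers do not mark the same animal, and a fit with the number as a block was an alternative. No pair of samples in a group was the same library, given chi-square values per gene of at least 133. The procedures were tested on simulated data. Alternatives were DESeq2, other scalings, filters and tests, TPM with limma, a gene length correction and leaving out each mouse, and the older quasi-likelihood fit was added after seeing the data.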

Additional observations from a re-analysis of the deposited data

How the results depend on the processing

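With edgeR's quasi-likelihood test, 0 genes and 0 ribosomal protein genes were called under every scaling, filter or length correction tried, against 1596 genes and 24 members at an unadjusted p under 0.05 (for all genes also with an absolute log2 fold change above 1). DESeq2 called 989 genes and 7 members, with 52 members at an unadjusted p, and the likelihood ratio test 369 genes and 1 member, with 38 members at an unadjusted p. TPM with limma gave 0 calls and 11 members at an unadjusted p, and it moved the median log2 fold change of all genes from -0.028 to 0.12 and that of the 77 genes without an l suffix to -0.74. Of 479 values of named genes under the 12 alternatives that kept all mice, 0 changed direction.

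When replicate numbers entered as a replicate block, 975 genes and 0 members were at an unadjusted p under 0.05, and the median of the 77 genes was -0.92. Samples that share a number are different animals, and the correlation of their deviations was 0.17 for replicate 1 and -0.037 for replicate 2. Under the block the ratio to the parent reversed to -0.0074 for Rpl32l and 0.24 for Rps27l. The Rpl32l ratio also reversed to -0.12 with a pseudocount of 0.1 CPM and to -0.11 with TPM.

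When each mouse was left out in turn, called genes ranged from 0 to 1, genes at an unadjusted p from 867 (without castrated replicate 3) to 2570 (without intact replicate 1), and members at an unadjusted p from 3 to 78. Members below 0 ranged from 65 to 82. Medians ran from -1.64 to -0.21 over the 77 genes, from -1.42 to -0.21 for the large and from -1.79 to -0.21 for the small subunit. Log2 fold changes ran from a lowest value without intact replicate 1 to a reversed value without intact replicate 2, from -0.93 to 0.26 for Rpl4, -0.99 to 0.47 for Rpl21, -1.41 to 0.050 for Rpl10, -1.42 to 0.50 for Rpl22, -1.41 to 0.26 for Rpl3, -1.64 to 0.24 for Rps27, -1.87 to 0.26 for Rps6 and -1.21 to 0.32 for Rpl11. Without intact replicate 2, Rpl34 was at -1.25 and Rpl22l1 at -0.93, with no change of direction. Ratios to the parent reversed within ranges of -0.046 to 0.19 for Rpl32l, -0.71 to 0.25 for Rpl36al and -0.66 to 0.54 for Rps27l. The cause of these changes was not tested. A single intact mouse can set the group mean, and 2 intact mice limit every comparison here.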

Other observations

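The table also held 9 rows of Rpl or Rps genes outside the rule, 7 named as pseudogenes and 2 as retrogenes, and their counts were low. Rps6-ps4, a copy of Rps6, was at 10.9, 8.74 and 11.5 CPM in the castrated mice and at 7.17 and 39.2 CPM in the intact mice. It followed the order of its parent, with intact replicate 1 lowest and intact replicate 2 highest. Rpl14-ps1 (6.59, 3.49 and 4.92 CPM in castrated, 4.08 and 19.0 CPM in intact samples) and Rps27rt (3.001, 2.15 and 3.07 CPM in castrated, 2.06 and 9.39 CPM in intact samples) also peaked in intact replicate 2. Rps27rt lies on chromosome 3 from 90212667 to 90213647, nearly the coordinates of Rps27 itself (90212667 to 90213648). Its counts are therefore not shown to come from a separate copy. Rps19-ps3 did not, at 2.41, 1.77 and 1.41 CPM in castrated and 2.96 and 2.88 CPM in intact samples, whereas its parent Rps19 was at 411, 324 and 371 CPM in castrated and 417 and 1365 CPM in intact samples. Rps19-ps3 was named after its values were seen, as were the other 3. Rpl31-ps12 had 1 count in every sample.

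Of the immune and stromal marker lists, 12 of 12 macrophage genes were above 0, with summed CPM of 1144, 3127 and 1562 in the castrated mice and of 694 and 693 in the intact mice. Cd68 led in castrated replicates 2 and 3. B cell genes were above 0 in 5 of 5, with sums of 9.84, 62.3 and 76.5 CPM in castrated and 1.08 and 3.95 CPM in intact samples. Smooth muscle genes were above 0 in 8 of 8 and fibroblast genes in 6 of 7, and T cell genes in 6 of 7, of which 1 did not overlap. Endothelial genes were above 0 in 5 of 6, of which 3 did not overlap. Of all genes tested, 17% had all castrated samples above both intact mice.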
